A study of Mus musculus with 8 samples.

Results

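The Gadd45 family consists of 3 genes, Gadd45a, Gadd45b and Gadd45g, out of 37310 genes counted in 8 poly-A RNA sequencing libraries of mouse embryonic stem cells. They were chosen by name and found through their Ensembl gene IDs, and all 3 passed the filter on low counts that left 14462 genes for testing. The study came from a screen of RNA helicases by RNAi and depleted eIF4A3, the RNA helicase at the core of the exon junction complex. Lentiviral infection followed a transfection of cells kept without feeders, and puromycin at 1 µg/mL was applied for 2.5 days before harvest on day 4.5 after infection. The J1 line (129S4/SvJae) gave 3 groups of 2 libraries. The control had a control knockdown and control expression, the group labelled knockdown had an eIF4A3 knockdown and control expression, and the group labelled Ccnb1 had an eIF4A3 knockdown with overexpression of Ccnb1, the gene of cyclin B1. The CCE line (129/Sv) gave 2 libraries labelled eIF4A3 knockdown, and a control of that line was not analysed here. All groups thus carried a lentiviral vector and drug selection, per the labels. Groups are called by these labels throughout.

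Gadd45 proteins are small acidic proteins without enzymatic activity that act by binding others. They activate the kinase MAP3K4 and through it the p38 and JNK stress kinases, hold back CDK1 with cyclin B1, bind PCNA and p21, and take part in active DNA demethylation and repair. Their mRNAs are induced by stress and are short-lived. Gadd45a is a classical target of p53, FOXO3, ATF4 and BRCA1, Gadd45b of NF-κB and TGF-β signalling, and Gadd45g is known from differentiation and cytokine responses. Gadd45b and Gadd45a are known in other systems as transcripts limited by nonsense-mediated decay, a process that reads exon junction complexes. The libraries measure levels and not decay, and in them the 3 genes did not move as 1 group.

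The 3 main transcripts are alike in build (GENCODE M21). Each has 4 exons, and the lengths are 1223 bases for Gadd45a, 1284 for Gadd45b and 1071 for Gadd45g, with predicted proteins of 165, 160 and 159 residues. In each the last exon junction lies before the stop codon, by 114 bases in Gadd45a and Gadd45b and 111 in Gadd45g, so none has the junction more than 50 bases past the stop that marks a classical decay target. Such a junction was found in 48 of 12660 tested genes with an annotated coding transcript (0.379%). None has an ATG in its 5′ UTR, while 51.3% of those genes do. They differ in base composition. GC content is 49.8% for Gadd45a, 56.9% for Gadd45b and 59.9% for Gadd45g, above 45.1%, 83.1% and 94.3% of the tested genes with annotation. In the 3′ UTR it is 34.6%, 57.0% and 60.9%. The pentamer ATTTA, the core of AU-rich decay elements, has 2 matches in the 3′ UTR of Gadd45a and 0 in those of Gadd45b and Gadd45g, against 66.2% of tested coding genes with at least 1. Both Gadd45a sites are shown with 10 bases on each side, the pentamer in capitals, at 261 and 506 bases past the stop codon.
Gadd45a, site at base 261: aaaactgctaATTTAggatggccag
Gadd45a, site at base 506: gtgaaaggttATTTAtgataaagtt

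The promoters are shown to describe the genes, and no link between a motif and a level was tested. Printed are the 250 bases before the RefSeq transcription start (GRCm38.p6, a later build than the mm9 of the counts), with searched motifs in capitals. They lie at chr6:67037408-67037657 (minus strand) for Gadd45a, chr10:80929841-80930090 (plus strand) for Gadd45b and chr13:51846425-51846674 (plus strand) for Gadd45g, and their GC content is 59.2%, 65.2% and 62% in that order.
Gadd45a: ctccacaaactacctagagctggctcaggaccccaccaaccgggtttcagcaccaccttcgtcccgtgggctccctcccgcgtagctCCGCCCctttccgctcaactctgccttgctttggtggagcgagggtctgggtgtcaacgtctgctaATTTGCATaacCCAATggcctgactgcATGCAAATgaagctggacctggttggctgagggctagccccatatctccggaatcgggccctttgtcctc
Gadd45b: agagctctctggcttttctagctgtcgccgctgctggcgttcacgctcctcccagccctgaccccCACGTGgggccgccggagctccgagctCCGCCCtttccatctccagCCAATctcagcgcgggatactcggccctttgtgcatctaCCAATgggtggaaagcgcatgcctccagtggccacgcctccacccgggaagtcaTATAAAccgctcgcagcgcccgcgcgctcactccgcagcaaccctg
Gadd45g: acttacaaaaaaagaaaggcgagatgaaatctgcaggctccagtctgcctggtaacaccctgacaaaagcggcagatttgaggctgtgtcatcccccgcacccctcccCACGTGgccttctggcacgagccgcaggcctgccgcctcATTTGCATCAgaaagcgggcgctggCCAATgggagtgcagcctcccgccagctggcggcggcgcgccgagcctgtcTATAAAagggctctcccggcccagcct
Motifs were searched on both strands, and shares are of 32851 RefSeq start sites with a window of the same length. CCAAT stands in all 3 windows, 1 match in Gadd45a, 2 in Gadd45b and 1 in Gadd45g, and in 33.8% of all windows. The octamer ATGCAAAT, the site of POU proteins such as OCT1 and OCT4, has 2 matches in Gadd45a and 1 in Gadd45g and none in Gadd45b, and is held by 1.60% of all windows. A TATAAA box stands in Gadd45b and Gadd45g and in 12.4% of all windows, and the E-box CACGTG in the same 2 genes and in 6.02%. The GC box GGGCGG stands in Gadd45a and Gadd45b and in 32.7%. TGATGNAA, the core of the element bound by ATF4 with C/EBP proteins, has 1 match, in Gadd45g, which overlaps the octamer there, and is held by 3.45% of windows. No window holds the cAMP element half-site TGACG (17.8% of all windows) or the AP-1 site TGANTCA (6.75%). These are matches of letters and not measured binding.

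Gene counts per library ran from 3596615 to 8340023 in J1 and were 23965806 and 25573379 in CCE. The labels do not say whether libraries came from separate cultures, so p-values measure only the spread between these libraries, which may be technical. Both libraries labelled knockdown stood apart. Unaligned reads made up 40.8% and 45.2% of their reads with 15.9% or less elsewhere in J1, and their spread was 22.0 times Poisson noise against 3.41 times in control and 1.88 times in Ccnb1-labelled cells. In comparisons with this pair, the knockdown and these features of the libraries cannot be told apart. Levels are in CPM (counts scaled by the library's sum over all genes). For the target Eif4a3 the controls had 73.5 and 83.7 CPM, the pair labelled knockdown 75.7 and 37.5 CPM, the pair labelled Ccnb1 47.3 and 53.5 CPM and CCE 48.8 and 53.9 CPM, so knockdown-labelled replicate 1 lay at the control level. The row of Ccnb1 in Ccnb1-labelled cells, at 136 and 131 CPM, was near control (135 and 129 CPM). Both values lay above the pair labelled knockdown, at 101 and 126 CPM. The summed level of 10 markers of embryonic stem cells, all 10 measured in every group, was 8899 to 8906 CPM in control, 4139 to 4508 in knockdown-labelled cells, 8823 to 8923 in Ccnb1-labelled cells and 4310 to 4795 in CCE. All 10 fell in knockdown-labelled cells against control, while in Ccnb1-labelled cells against control 5 rose (Nanog, Zfp42, Esrrb, Klf4 and Tfcp2l1) and 2 fell (Pou5f1 and Utf1). Of 12 fibroblast and feeder markers, Acta2, Col1a2, Col3a1, Dcn, Postn and S100a4 were at 0 in control and in knockdown-labelled cells, with Col6a1 also at 0 in control and Lum in knockdown-labelled cells, and the sum was 19.8 to 21.9 CPM, 36.7 to 48.0 CPM and, in Ccnb1-labelled cells, 32.3 to 33.9 CPM. The CCE sums were 175 to 248 CPM with none at 0, and Acta2 alone had 133 and 213 CPM. Lum (0.125 and 0.0391 CPM), Dcn (0.501 and 0.274 CPM) and Postn (0.167 and 0.235 CPM) were near 0 there. Endoderm markers summed to 13.1 to 14.6 CPM in control, 26.4 to 29.8 in knockdown-labelled cells, at least 89.3 in Ccnb1-labelled cells and 79.5 to 107 in CCE. Afp was at 0 in all J1 groups, and Foxa2 and Sox7 were at 0 in knockdown-labelled cells. Of 7 tested endoderm markers, 1 rose (Dab2) and 1 fell (Sox7) in knockdown-labelled cells against control, with a median log2 fold change of 0.01. In the order control, knockdown-labelled, Ccnb1-labelled and CCE, neuroectoderm markers summed to 138 to 153, 39.3 to 56.4, at least 197 and 85.6 to 86.9 CPM. Mesoderm markers summed to 23.0 to 24.8, 9.55 to 24.5, 24.7 to 32.0 and 29.9 to 33.3 CPM, and trophectoderm markers to 42.3 to 47.7, 36.8 to 68.1, 69.7 to 77.3 and 228 to 291 CPM. Tubb3 alone had 124 and 109 CPM in control, 26.4 and 29.5 in knockdown-labelled cells, and 159 and 157 in Ccnb1-labelled cells. Krt8 (87.1 and 117 CPM) and Krt18 (77.7 and 110 CPM) made up most of the trophectoderm sum in CCE. The part of these markers in the results below was not tested. In bulk RNA, fewer cells of a type and less RNA per cell cannot be told apart.

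Across the J1 groups Gadd45g rose and Gadd45a fell in knockdown-labelled cells against control, and Gadd45b did not pass the test. Thus 2 of 3 genes were called where 28.9% of all tested genes were, 1 higher (11.0% of all) and 1 lower (17.9%). In Ccnb1-labelled cells against knockdown-labelled cells, 1 of 3 was called, Gadd45g, which fell, where 38.8% of tested genes were called, 22.8% higher and 16.0% lower. In Ccnb1-labelled cells against control, Gadd45a and Gadd45g both fell, where 19.8% of tested genes were called, 9.35% higher and 10.5% lower. The comparisons share libraries and are not independent of each other. Calls are at an adjusted p of 0.05 in edgeR's quasi-likelihood test. The counts of called genes rest on single libraries. Without control replicate 2, 222 genes rose and 479 fell in knockdown-labelled cells against control, and without knockdown-labelled replicate 2 these counts were 4336 and 5889.

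**Figure D1:**
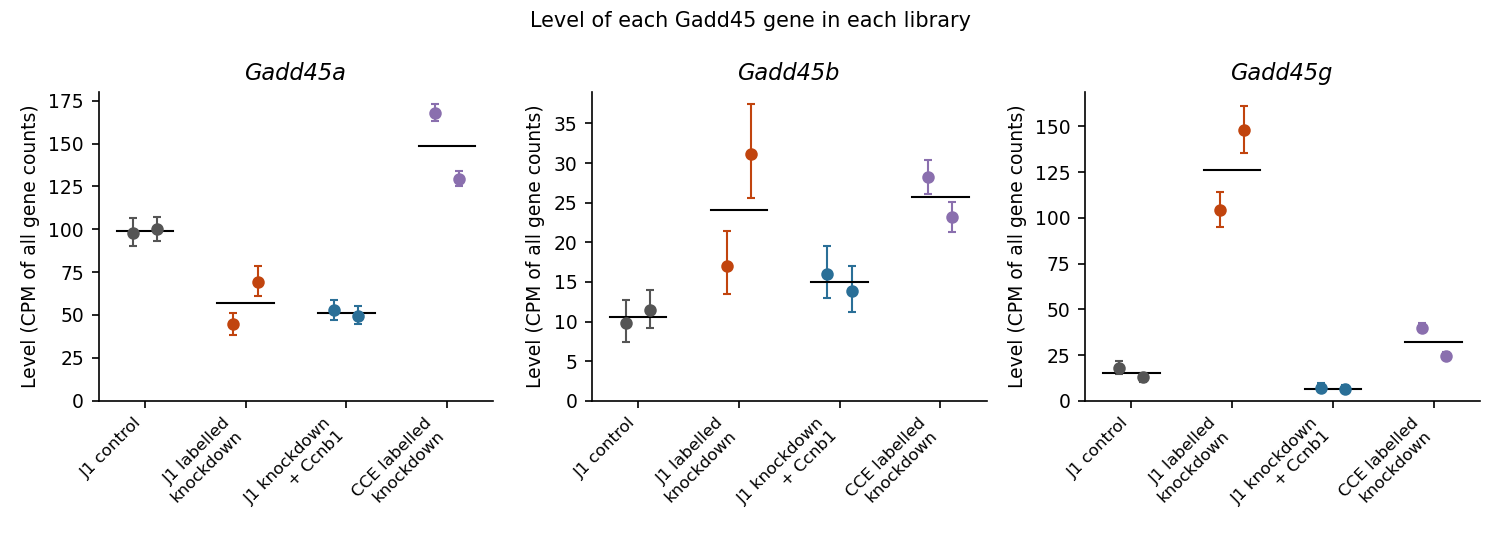
Level of Gadd45a, Gadd45b and Gadd45g in each of the 8 libraries, in CPM of all gene counts on linear axes from 0. Points are libraries, bars are exact 95% binomial intervals for counting error only, and black lines are group means. Gadd45g in knockdown-labelled cells, at 104 and 148 CPM, lies above all other libraries, and Gadd45a in J1 is highest in control.

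Gadd45g (ENSMUSG00000021453) was the member with the largest differences. The control libraries held 18.1 and 12.7 CPM, those labelled knockdown 104 and 148 CPM and those labelled Ccnb1 6.98 and 6.34 CPM, from 104 and 106, 458 and 532, and 41 and 42 counts. Both libraries labelled knockdown were high, and both libraries labelled Ccnb1 were the lowest. As means these are 15.4 ± 3.82, 126 ± 31.0 and 6.66 ± 0.452 CPM (SD, n = 2 each). In knockdown-labelled cells Gadd45g was 7.38-fold above control (log2 fold change 2.88, SE 0.29, edgeR adjusted p = 0.00220), a rise exceeded by 3.34% of tested genes. In Ccnb1-labelled cells it was 17.9-fold below knockdown-labelled cells (log2 fold change -4.16, SE 0.31, edgeR adjusted p = 0.000560), and 99.3% of tested genes had a higher value. Both calls held under all 14 alternatives run, at log2 fold changes of 2.59 to 3.11 and -4.35 to -3.71.

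Gadd45g in Ccnb1-labelled cells was not back at control but 2.42-fold below it (log2 fold change -1.28, SE 0.30, edgeR adjusted p = 0.0356). This call was lost with the replicate block, with an offset for length and GC content, and without any single control or Ccnb1-labelled library (log2 fold changes -1.49 to -0.99, edgeR adjusted p = 0.122 to 0.261). With the offset the value was -0.61 (edgeR adjusted p = 0.265). The fit of the 2 groups alone, which leaves out the spread of the libraries labelled knockdown, gave -1.32 with a smaller p (edgeR adjusted p = 0.000136).

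Gadd45a (ENSMUSG00000036390) was lower in both other J1 groups than in control. The control libraries held 97.9 and 100.0 CPM, those labelled knockdown 44.6 and 69.5 CPM and those labelled Ccnb1 52.8 and 49.7 CPM. Both controls were the highest J1 libraries, while knockdown-labelled cells spanned Ccnb1-labelled cells. Group means were 98.9 ± 1.49, 57.0 ± 17.6 and 51.2 ± 2.19 CPM (SD, n = 2 each). In knockdown-labelled cells it was 1.93-fold below control (log2 fold change -0.95, SE 0.23, edgeR adjusted p = 0.0323). The call was lost with only the 2 groups in the fit, with the replicate block, with an offset for length and GC content (-0.52, edgeR adjusted p = 0.131), and without control replicate 1 or 2 or Ccnb1-labelled replicate 1 or 2 (edgeR adjusted p = 0.0983 to 0.187).

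In Ccnb1-labelled cells, Gadd45a was 2.03-fold below control (log2 fold change -1.02, SE 0.23, edgeR adjusted p = 0.0323). Without any single control or Ccnb1-labelled library the call was lost at nearly the same size (-1.05 to -0.96, edgeR adjusted p = 0.213 to 0.257), as it was with the replicate block and the offset. In the fit of the 2 groups alone it was -1.08 (edgeR adjusted p = 2.80e-10). Between Ccnb1-labelled cells and knockdown-labelled cells no difference was detectable (-0.07, SE 0.23, 95% interval -0.65 to 0.51, edgeR adjusted p = 0.838), and its direction changed with the libraries used. Leaving out knockdown-labelled replicate 1 gave -0.32 (edgeR adjusted p = 0.0512) and leaving out replicate 2 gave 0.34 (edgeR adjusted p = 0.0457), while leaving out Ccnb1-labelled replicate 2 gave 0.02 (edgeR adjusted p = 0.981). In such fits the lone library is assumed to vary like the other groups.

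The gene E230016M11Rik, annotated on the other strand, shares 337 exon bases with Gadd45a, and the strand handling of the counts is not given in the sources used here. It had 12 and 13 counts in control, 0 in each library labelled knockdown, and 13 and 19 in Ccnb1-labelled cells, against 196 to 834 for Gadd45a in the same libraries. In CCE it had 1318 and 1106 counts beside 4027 and 3307 for Gadd45a. If counting ignored strand, reads in the shared bases could not be assigned in any library, J1 included. The Gadd45a levels per kilobase below use the full transcript length all the same. Gadd45b and Gadd45g share no exon bases with another gene, and a search at 90% identity over at least 100 bases found no copy of them.

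Gadd45b (ENSMUSG00000015312), named above as a decay target in other systems, did not pass the test in any J1 comparison. The control libraries held 9.75 and 11.4 CPM, those labelled knockdown 17.1 and 31.1 CPM and those labelled Ccnb1 16.0 and 13.9 CPM, from 56 and 95, 75 and 112, and 94 and 92 counts. Knockdown-labelled replicate 2 was the highest J1 library, replicate 1 lay just above Ccnb1-labelled cells, and both controls were lowest. Means were 10.6 ± 1.16, 24.1 ± 9.96 and 15.0 ± 1.49 CPM (SD, n = 2 each). Against control the log2 fold change in knockdown-labelled cells was 1.03 (SE 0.41, 95% interval 0.02 to 2.04, edgeR adjusted p = 0.116). Leaving out knockdown-labelled replicate 1 gave 1.37 (edgeR adjusted p = 7.41e-06), and leaving out replicate 2 gave 0.49 (edgeR adjusted p = 0.144). DESeq2's own test called it (1.08, adjusted p = 0.0433).

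Gadd45b stood at -0.61 in Ccnb1-labelled cells against knockdown-labelled cells (SE 0.40, 95% interval -1.61 to 0.39, edgeR adjusted p = 0.290) and at 0.42 against control (SE 0.40, 95% interval -0.58 to 1.42, edgeR adjusted p = 0.536). The first became -0.94 when knockdown-labelled replicate 1 was left out (edgeR adjusted p = 0.00161) and -0.05 when replicate 2 was (edgeR adjusted p = 0.886). A difference of 2-fold lies inside both intervals.

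**Figure D2:**
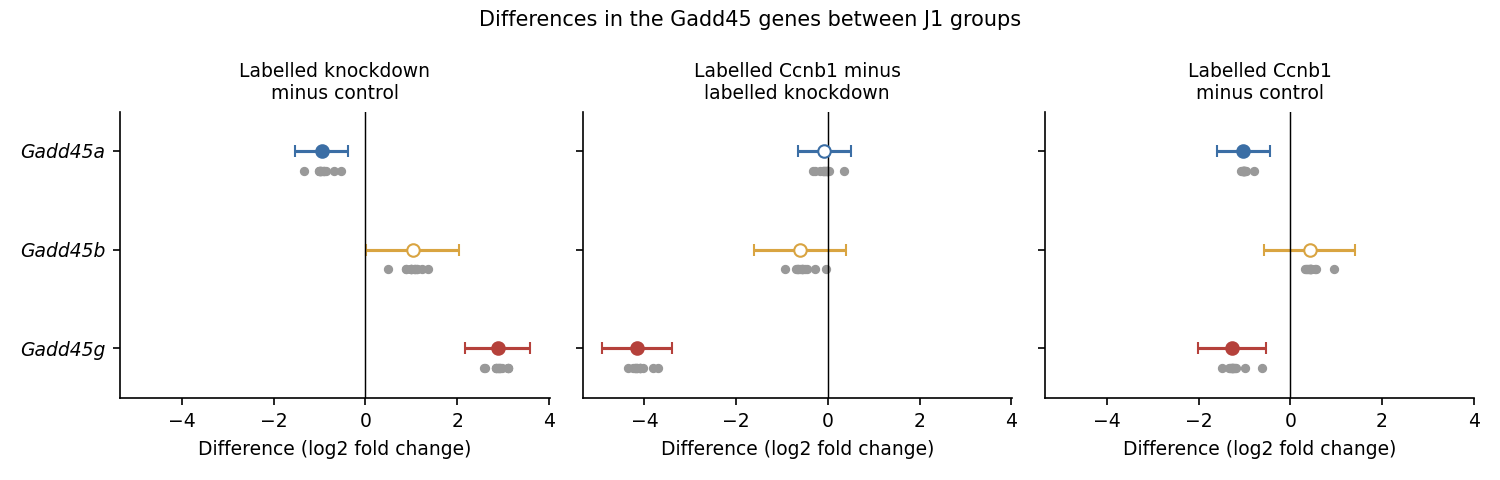
Log2 fold change of the 3 genes in the 3 J1 comparisons. Large points with bars are the edgeR estimate over 6 libraries with its 95% interval, filled where the adjusted p was below 0.05, and small grey points are the 14 alternatives. Gadd45g lies at 2.88, -4.16 and -1.28 from left to right, and Gadd45a in the middle panel has alternatives on both sides of 0.

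Per kilobase of transcript, which allows levels of the genes to be compared, the family changed its make-up in knockdown-labelled cells. Gadd45a was the most abundant member in control, at a mean of 80.9 CPM per kilobase and 76.6% and 79.8% of the family sum. Gadd45g held 16.2% and 11.6% of it and Gadd45b 7.27% and 8.65%. In knockdown-labelled cells Gadd45g took the first place with 66.2% and 63.0%, against 24.8% and 25.9% for Gadd45a and 9.04% and 11.1% for Gadd45b. In Ccnb1-labelled cells Gadd45a again held most, 69.5% and 70.8%, and Gadd45b (20.1% and 18.9%) exceeded Gadd45g (10.5% and 10.3%).

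The family sum itself was 105 and 103 CPM per kilobase in control, 147 and 219 in knockdown-labelled cells and 62.2 and 57.4 in Ccnb1-labelled cells. The pair labelled knockdown was the widest apart. By level per kilobase, Gadd45g stood above 64.8% and 56.7% of tested genes in control, 93.9% and 96.4% in knockdown-labelled cells, and 38.6% and 36.3% in Ccnb1-labelled cells. Gadd45a stood above 91.8% of them in both control libraries and above 80.4% to 88.2% in the other J1 libraries.

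**Figure D3:**
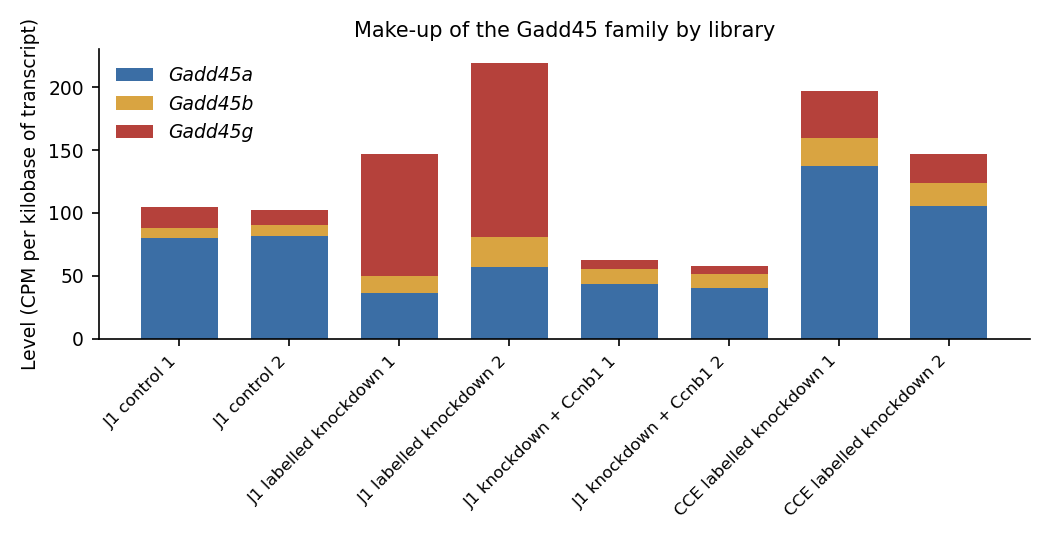
Stacked level of Gadd45a, Gadd45b and Gadd45g in each library, in CPM per kilobase of transcript. The bar height is the family sum, from 57.4 in Ccnb1-labelled replicate 2 to 219 in knockdown-labelled replicate 2, and the Gadd45g part is the largest only in the 2 J1 libraries labelled knockdown.

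In CCE, Gadd45a stood at 168 and 129 CPM, Gadd45b at 28.2 and 23.1 CPM and Gadd45g at 40.0 and 24.7 CPM. Replicate 1 was the higher library for all 3. The make-up was led by Gadd45a (69.8% and 72.0% of the family sum per kilobase), with Gadd45g at 19.0% and 15.7% and Gadd45b at 11.2% and 12.3%. The summary rows of the CCE files differ, with 0 unaligned or low-quality reads and 48.5% and 49.5% of reads outside genes, so no test against J1 was made. The orders that follow are descriptions only, as reads of CCE and J1 may not have been filtered alike before CPM. In order of mean level, Gadd45a ran from CCE (149 ± 27.4 CPM) over control to knockdown-labelled cells and Ccnb1-labelled cells, whose libraries overlapped. Gadd45b ran from CCE (25.7 ± 3.58 CPM) to knockdown-labelled cells, which overlapped with it, then Ccnb1-labelled cells and control. Gadd45g ran from knockdown-labelled cells over CCE (32.4 ± 10.8 CPM) and control to Ccnb1-labelled cells.

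The genes around the family were described by 8 lists of 168 genes, of which 11 are in more than 1 list. Their counts are read against all tested genes, of which 11.0% rose and 17.9% fell in knockdown-labelled cells against control (median log2 fold change -0.08), 22.8% and 16.0% in Ccnb1-labelled against knockdown-labelled cells (median 0.14) and 9.35% and 10.5% in Ccnb1-labelled cells against control (median 0.07). Among 23 tested regulators of Gadd45 transcription or mRNA, 3 rose and 8 fell in knockdown-labelled cells (median log2 fold change -0.30), and over the 14 alternatives 1 to 7 rose and 4 to 13 fell. Those that rose were Atf4 (0.39, SE 0.06, edgeR adjusted p = 0.00957), Foxo3 (0.93, SE 0.15, edgeR adjusted p = 0.00999) and the p53 relative Trp73. Trp53 itself fell (-0.66, SE 0.07, edgeR adjusted p = 0.00272), and Brca1 stood at -0.01 (edgeR adjusted p = 0.980). In Ccnb1-labelled cells against knockdown-labelled cells 12 rose and 3 fell (median 0.75), or 4 to 17 and 2 to 5 over the alternatives. Atf4 fell (-1.37, SE 0.06, edgeR adjusted p = 0.000183), and Trp53 (0.46), Brca1 (1.24) and Foxo3 (0.68) rose. Against control, Ccnb1-labelled cells had 3 higher, Brca1, Foxo3 and Zfp36l1, and 1 lower, Atf4 (median 0.18), or 0 to 9 and 1 to 7 over the alternatives.

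Of 22 genes of the stress kinase pathway below Gadd45, against the 11.0% higher and 17.9% lower of all genes, 2 rose in knockdown-labelled cells, Jun and the p38 phosphatase gene Ppm1d, and 2 fell, Map2k7 and Mapk14, the gene of p38α (-0.43, SE 0.12, edgeR adjusted p = 0.0476). Map3k4, whose kinase Gadd45 proteins bind, stood at -0.23 (edgeR adjusted p = 0.673), and Mapk8, the gene of JNK1, at -0.25 (edgeR adjusted p = 0.441). The call of Mapk14 was lost under most alternatives, DESeq2's size factors included. The list median was 0.20, and over the alternatives 1 to 7 rose and 0 to 7 fell. In Ccnb1-labelled cells against knockdown-labelled cells 3 rose and 2 fell (median 0.18), or 1 to 11 and 0 to 5 over the alternatives. Against control 4 rose and 1 fell (median 0.25), or 0 to 11 and 0 to 7.

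Among 15 cell cycle partners, 2 rose and 7 fell in knockdown-labelled cells (median -0.37), beside 11.0% and 17.9% of all genes, or 1 to 4 and 2 to 11 over the alternatives. Cdkn1a, which encodes p21, rose (2.09, SE 0.13, edgeR adjusted p = 0.000649), as did Chek2. Cdk1 (-0.62, SE 0.15, edgeR adjusted p = 0.0306), Pcna (-0.73, SE 0.16, edgeR adjusted p = 0.0239) and Gadd45gip1, which encodes a mitochondrial and nuclear protein that binds Gadd45 (-0.69, SE 0.10, edgeR adjusted p = 0.00624), fell. Ccnb1 stood at -0.37 (edgeR adjusted p = 0.0968). In Ccnb1-labelled cells against knockdown-labelled cells 5 rose and 4 fell (median 0.25), with Pcna at 2.23 (SE 0.16, edgeR adjusted p = 0.000525) and Cdkn1a at -0.76 (SE 0.13, edgeR adjusted p = 0.00760). Over the alternatives these counts were 3 to 9 and 0 to 4. Against control 3 rose, Cdkn1a, Pcna and Wee1, and 1 fell, Gadd45gip1 (median -0.22), or 0 to 4 and 0 to 9.

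Of 18 demethylation and repair partners, 4 rose and 5 fell in knockdown-labelled cells (median -0.14), beside 11.0% and 17.9% of all genes, or 2 to 7 and 1 to 8 over the alternatives. Tet1, which oxidises methylcytosine, fell (-0.53, SE 0.06, edgeR adjusted p = 0.00388), and so did Ing1, which encodes a histone-reading protein that recruits Gadd45a (-2.30, SE 0.45, edgeR adjusted p = 0.0167). The glycosylase gene Tdg had low counts in J1, at most 3.32 CPM in any library, with 27.7 and 29.1 CPM in CCE, whose files differ. Copies were searched for the Gadd45 genes only. Whether Tdg lost reads in J1 as low-quality alignments was not tested. In knockdown-labelled cells Tdg had 0.227 and 0 CPM and did not pass the test against control (edgeR adjusted p = 0.0636). From the libraries labelled knockdown to those labelled Ccnb1, 8 rose and 4 fell (median 0.27), or 3 to 10 and 2 to 7 over the alternatives. Against control 3 rose and 2 fell (median 0.38), or 2 to 8 and 0 to 4. Tet1 was 2.95 and 2.43 higher on the log2 scale in these comparisons (edgeR adjusted p = 5.71e-05 and 0.000309).

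Of 18 other growth arrest and stress genes, 10 rose in knockdown-labelled cells and 2 fell, Ppp1r15b and Gas5 (median 0.50), beside 11.0% and 17.9% of all genes, and over the alternatives 3 to 10 rose and 1 to 6 fell. Ddit3, known as Gadd153 and the gene of the transcription factor CHOP, reached 684 and 491 CPM where both controls had 12.9 and 19.1 CPM (5.02, SE 0.26, edgeR adjusted p = 0.000426). Ppp1r15a, known as Gadd34 and the gene of an eIF2α phosphatase subunit, rose by less (0.83, SE 0.11, edgeR adjusted p = 0.00553), and Ddit4, an inhibitor of mTORC1, by 1.70 (SE 0.24, edgeR adjusted p = 0.00630). From the libraries labelled knockdown to those labelled Ccnb1, 3 rose and 4 fell (median -0.17), or 2 to 5 and 3 to 7 over the alternatives. Ddit3 fell (-4.17, SE 0.24, edgeR adjusted p = 0.000285), beside -4.16 for Gadd45g, while Ppp1r15a stood at -0.20 (edgeR adjusted p = 0.207) and Ddit4 at 0.62 (edgeR adjusted p = 0.0821). Against control 5 rose and 2 fell, Trib3 and Gas5 (median 0.11), or 0 to 9 and 0 to 4 over the alternatives.

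Of 28 p53 targets other than Gadd45a, 17 rose and 2 fell, Pmaip1 and Tigar, in knockdown-labelled cells (median 1.06), beside 11.0% and 17.9% of all genes, and over the alternatives 11 to 19 rose and 0 to 4 fell. Mdm2, which limits p53, rose by 1.61 (SE 0.07, edgeR adjusted p = 0.000293) and Btg2, an antiproliferative gene, by 1.75 (SE 0.15, edgeR adjusted p = 0.00137). Gadd45a, at -0.95, was called in the other direction in the same fit. From the libraries labelled knockdown to those labelled Ccnb1, 5 rose and 13 fell (median -0.63), or 1 to 8 and 7 to 15 over the alternatives, with Mdm2 at -0.88 (edgeR adjusted p = 0.000557) and Btg2 at -0.04 (edgeR adjusted p = 0.859). Against control 11 rose and 2 fell, Bax and Pidd1 (median 0.34), or 3 to 15 and 0 to 6 over the alternatives. Mdm2 (0.72, edgeR adjusted p = 0.00227) and Btg2 (1.71, edgeR adjusted p = 0.00196) were among those that rose, and Gadd45a again fell.

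Immediate early genes are short-lived first responders to stress and growth signals. In knockdown-labelled cells 5 of 27 rose and 7 fell (median -0.01), beside 11.0% and 17.9% of all genes, or 3 to 11 and 4 to 12 over the alternatives. Egr1 stood at 0.27 (edgeR adjusted p = 0.559), Fos at 1.65 from few counts (edgeR adjusted p = 0.123), and Ier2 fell (-0.57, SE 0.06, edgeR adjusted p = 0.00285). From the knockdown to the Ccnb1 label, 6 rose and 4 fell (median 0.20), or 5 to 16 and 1 to 11 over the alternatives. Against control 8 rose and 2 fell, Ier2 and Sgk1 (median 0.47), or 0 to 16 and 0 to 6. Of 22 decay and exon junction factors, 5 rose in knockdown-labelled cells, Upf3a, Smg1, Smg9, Acin1 and Ncbp1, and 1 fell, Upf3b (median 0.00), 6 of 22 called where 28.9% of all genes were, or 0 to 9 and 0 to 6 over the alternatives. Smg1, the kinase of the decay factor UPF1, rose by 0.40 (SE 0.08, edgeR adjusted p = 0.0216), and Upf1 stood at 0.13 (edgeR adjusted p = 0.453). Eif4a3 stood at -0.63 (SE 0.33, edgeR adjusted p = 0.211). From the knockdown to the Ccnb1 label, 6 rose and 7 fell (median 0.32), or 1 to 11 and 3 to 9 over the alternatives. Against control 4 rose and 4 fell (median -0.26), or 0 to 7 and 0 to 13.

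**Figure D4:**
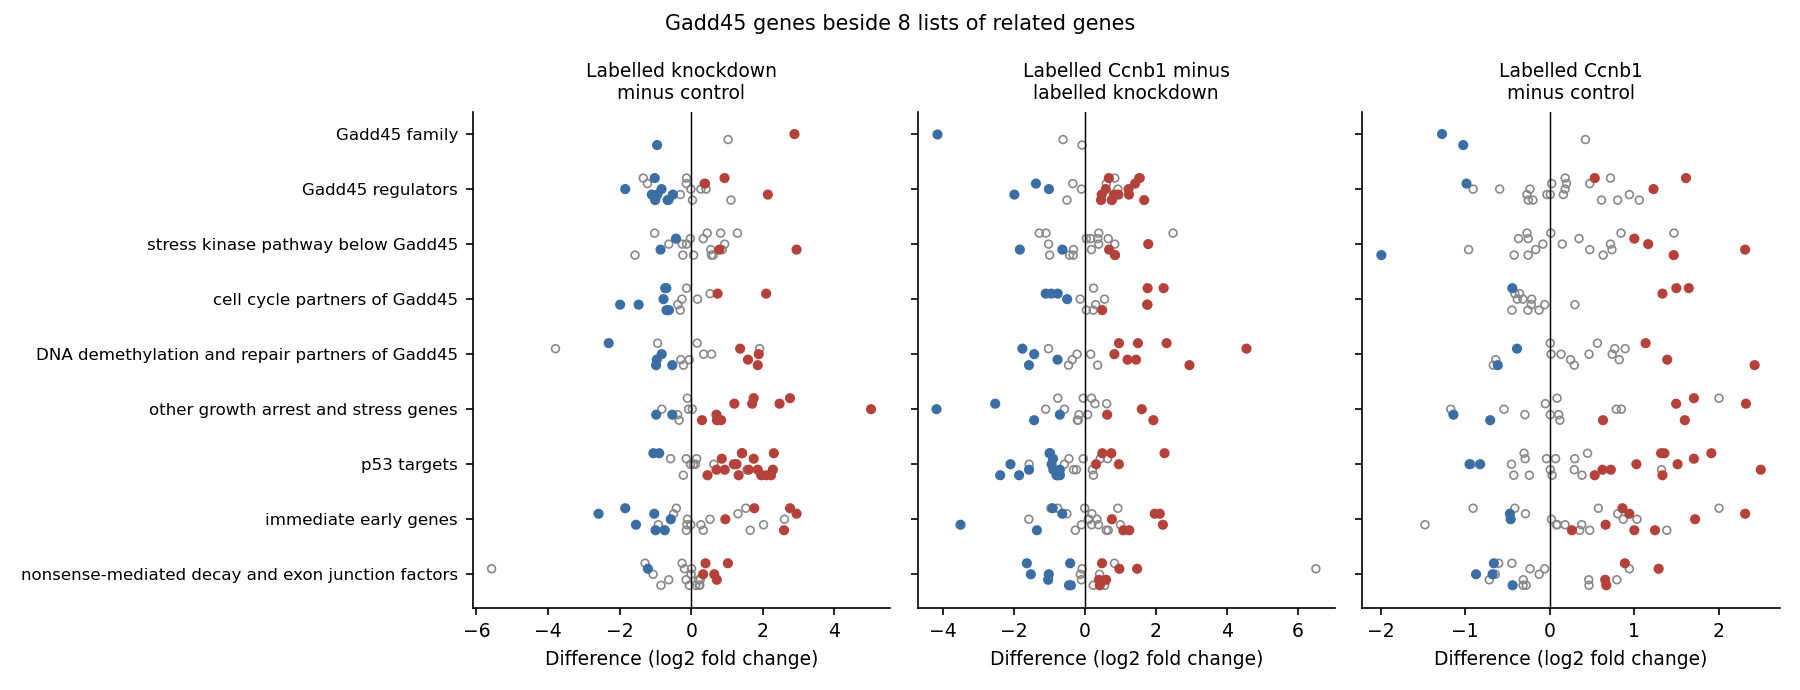
Log2 fold change of the 3 Gadd45 genes and of the tested genes of 8 related lists in the 3 J1 comparisons. Each point is a gene, filled red where called higher, filled blue where called lower and open where not called, with small vertical offsets for legibility and a range of its own for each panel's axis. In the left panel p53 targets have 17 red and 2 blue points, while Gadd45a is blue and Gadd45g red.

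Genes with the most similar profile were taken by the smallest root mean square difference of centred log2 CPM over the 6 J1 libraries, among 10471 genes. For Gadd45a the nearest was Spop, a ubiquitin ligase adaptor gene, at 0.0410 (r = 0.997), followed by Nfkbid, Snrpert, Sapcd2 and Islr2 at up to 0.0871. For Gadd45b the nearest was Lrpap1, the gene of a receptor chaperone, at 0.100 (r = 0.977), followed by C2cd2, Ncan, Mipol1 and Pcnx at up to 0.131. All 5 shared its high value in knockdown-labelled replicate 2, which follows from choosing them by likeness over the same libraries. For Gadd45g the distances were wider, from 0.376 for Fgfbp1, which encodes a carrier of fibroblast growth factors (r = 0.981), over Nhej1, a gene of DNA end joining, Robo3 and Tmem40 to 0.470 for Dcxr. The distance is not scaled to the size of a gene's differences, which were largest for Gadd45g, so distances cannot be compared between members. For these 5 genes r was 0.965 to 0.982. Between the members, r was -0.41 for Gadd45a and Gadd45b, -0.14 for Gadd45a and Gadd45g and 0.64 for Gadd45b and Gadd45g. These are descriptions over 6 libraries in 3 groups that share their processing.

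**Figure D5:**
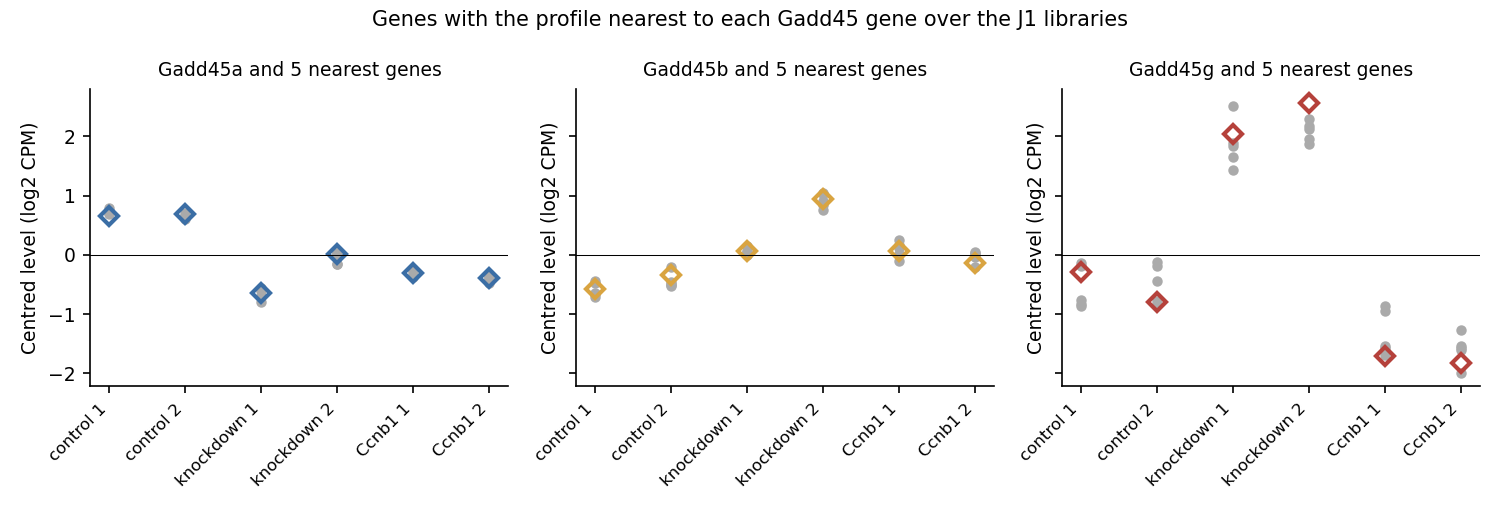
Level of each Gadd45 gene (open diamonds) and of its 5 nearest genes (grey points) in the 6 J1 libraries, as log2 CPM centred on each gene's mean. By root mean square difference the grey genes lie within 0.131 of Gadd45a and Gadd45b and within 0.470 of Gadd45g, whose libraries labelled knockdown are the highest.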

How the data were processed

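Poly-A RNA of 8 libraries was measured. The deposited counts are whole numbers of reads for each gene and library, with an Ensembl ID and no further scaling by the authors, per the file contents. Tools named by the submitters' processing notes, without roles, are HTSeq 0.11.2, Bowtie2 2.3.4.3, SAMtools 1.9 and edgeR 3.26.8, and the build is mm9. Rows naming no gene held 61.2% to 80.0% of J1 reads and 58.6% to 59.9% of CCE reads and were left out. Symbols were found for 32620 of 37310 IDs.

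The 6 J1 libraries were fitted together in edgeR 4.0.16 (R 4.3.3) with TMM scaling, filterByExpr, the quasi-likelihood test and Benjamini-Hochberg adjustment over 14462 genes. Alternatives used DESeq2 1.42.0 and limma 3.58.1, other filters, groups and libraries, a replicate block, and an offset for GC content and length. The scripts were tested on simulated data with the same spread in every group. The J1 groups differ in spread, and the simulation does not cover that. With 3 counts as the limit of a 0, the floor was 0.360 to 0.834 CPM in J1 and 0.117 to 0.125 CPM in CCE, for counting error only. Lengths, UTRs and GC content come from GENCODE M21 and promoters from RefSeq GRCm38.p6, which are not the authors' build. Copies were searched with BLAST 2.17.0.

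The Gadd45 genes and the lists were chosen with earlier results of these data known. Named in the text are the 3 Gadd45 genes, a set of genes chosen by role and not by change, and the 5 genes with the profile nearest to each Gadd45 gene. Where a list had few called genes, their names were added after their values were seen.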

Additional observations from a re-analysis of the deposited data

How the results depend on the processing

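Gadd45g kept its calls in knockdown-labelled cells against control and in Ccnb1-labelled against knockdown-labelled cells under all 14 alternatives, with log2 fold changes without 1 library of 2.59 to 3.11 and -4.35 to -3.82. Gadd45a against control in knockdown-labelled cells was -0.93 with only the 2 groups (edgeR adjusted p = 0.0858), -0.52 with an offset for length and GC content, and -1.34 to -0.69 without 1 library. Gadd45b there was 1.08 by DESeq2's test and 0.49 to 1.37 without 1 library. For Ccnb1-labelled against knockdown-labelled cells, Gadd45b ranged from -0.94 to -0.049 without 1 library and Gadd45a from -0.32 to 0.34. Gadd45a turned positive without knockdown-labelled replicate 2 and, at 0.02, without Ccnb1-labelled replicate 2. For Ccnb1-labelled cells against control, the offset gave -0.80 for Gadd45a and -0.61 for Gadd45g, and the ranges without 1 library were -1.05 to -0.96 and -1.49 to -0.99. The mean level of Gadd45a in control was 105 CPM after TMM scaling.

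The labels number the replicates 1 and 2 in each group. Same-numbered libraries did not deviate together (correlations of -0.0272 to 0.00834 over 11717 genes). This shows no sign of pairing but cannot exclude it. With the replicate block Gadd45a was -0.97 in knockdown-labelled cells against control (edgeR adjusted p = 0.0546), and in Ccnb1-labelled cells against control Gadd45a was -1.02 (edgeR adjusted p = 0.0553) and Gadd45g -1.28 (edgeR adjusted p = 0.0736). The block called 973 genes higher and 1658 lower in knockdown-labelled cells against control, and 887 higher in Ccnb1-labelled cells against control. It changed no other call of a Gadd45 gene.

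Counts of called genes over the whole table also moved. In knockdown-labelled cells against control, 1591 rose and 2593 fell. DESeq2's test called 2596 higher, limma 1497 lower, and the 2 groups alone 740 and 1020, and without 1 library the ranges were 222 to 4336 and 479 to 5889. In Ccnb1-labelled against knockdown-labelled cells, limma called 2129 higher against 3295, and without 1 library the ranges were 1011 to 6578 higher and 661 to 4500 lower. For Ccnb1-labelled cells against control, 1352 rose and 1513 fell. DESeq2's test called 2364 and 2292, limma 4580 and 4028, the 2 groups alone 4373 and 4285, and the offset 664 higher, and without 1 library the ranges were 96 to 4858 and 158 to 3958. The offset moved the share of higher calls from 38.0% to 52.7%, from 58.7% to 44.1% and from 47.2% to 35.5% in the 3 comparisons, and the median log2 fold change of all genes from -0.08 to 0.12, from 0.14 to -0.16 and from 0.07 to 0.02. The direction of each Gadd45 gene was the same with it. The cause of these shifts was not tested.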
